A study of Homo sapiens with 28 samples.

Results

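The joint effect of ONECUT2 and low oxygen on gene expression was followed in LNCaP cells, an androgen-responsive prostate adenocarcinoma line. All 8 LNCaP RNA-Seq libraries of the series were used, of 28 samples in all, and 12244 of 19662 genes were tested. The groups were empty vector in normoxia (N, EV), a vector for Flag-tagged ONECUT2 in normoxia (N, OC2), empty vector in hypoxia at 0.2% oxygen (H, EV) and the ONECUT2 vector in hypoxia (H, OC2), with 2 libraries each. Which ONECUT2 vector was used, and whether its expression was transient, is not given for these libraries in the sources used here. Neither is it said whether the 2 libraries of a group came from separate cultures, so p-values measure the spread between these libraries only. The question was which genes answer to ONECUT2 differently in hypoxia and in normoxia. A gene was tested if it reached 1 RPKM (a read count scaled by the length of the gene and the number of mapped reads) in at least 2 libraries and had no exact 0 beside a value over 10 RPKM.

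ONECUT2 belongs to the cut-homeodomain factors, which act in liver, pancreas and neuronal development and bind DNA directly. Low oxygen stops the prolyl hydroxylases that mark HIF1A and EPAS1 proteins for degradation, and the stabilized factors then bind hypoxia response elements of genes for glycolysis, angiogenesis and pH control. Inputs to a gene act additively on the log scale when the joint change equals the sum of the single changes. The interaction is the log2 change with ONECUT2 in hypoxia minus that in normoxia. It is above 0 where the joint change exceeds the sum, and below 0 where it falls short.

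The labels were checked first. HIF targets were higher in hypoxia, with 29 of the 30 tested members risen in the empty vector libraries. In these libraries 18.6% of all genes tested rose and 14.5% fell with hypoxia, and in the ONECUT2 libraries 18.9% rose and 8.79% fell. ONECUT2 itself could not serve as a check, because the deposited table holds no value for it in the 4 ONECUT2 libraries; in the empty vector libraries it stood at 2.89 and 7.86 RPKM in normoxia and at 11.5 and 3.09 RPKM in hypoxia. GH1, the growth hormone gene, was looked at after its values were seen. It stood at 0.118 and 2.73 RPKM in N, EV and at 3.53 and 0.107 RPKM in H, EV, against 5374 and 5817 RPKM in N, OC2 and 7913 and 5891 RPKM in H, OC2. GH1 thus separated the 4 ONECUT2 libraries from the others, and the source of these reads was not tested.

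The libraries looked like LNCaP cells. All 10 LNCaP markers were expressed in every library, with KLK3 (prostate-specific antigen) between 1842 and 3997 RPKM and KLK2, a related kallikrein, between 423 and 1359 RPKM. Of markers of other cells, PTPRC (blood cells) was at 0 in all libraries, TP63 (basal cells) did not exceed 0.0179 RPKM and CAV1, which PC3 cells carry, did not exceed 0.120 RPKM. VIM was the most abundant of these markers, from 23.6 to 58.2 RPKM, COL1A1 (fibroblasts) ran from 7.57 to 25.9 RPKM with both H, OC2 libraries highest, ANXA1 from 1.98 to 3.21 RPKM and MYOD1 (muscle) from 0.0189 to 6.97 RPKM, and the summed level of the whole list ran from 38.7 to 92.2 RPKM. Of its 4 tested members VIM had an unadjusted P under 0.05 for the interaction (0.82 on the log2 scale, SE 0.18, adjusted p = 0.0868). Relative to N, EV the mean of the 4 was -0.04 and -0.05 on the log2 scale in N, OC2, 1.78 and 1.67 in H, EV, and 1.85 and 1.95 in H, OC2, so it was higher in hypoxia with either vector. The part of these genes in the results was not tested.

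The read depth relative to the deepest library, estimated from the steps between low RPKM, lay between 0.548 (N, OC2 replicate 1) and 1 (N, EV replicate 2). The robust SD between the 2 libraries of a group on the log2 scale was 0.209 in N, EV, 0.168 in N, OC2, 0.107 in H, EV and 0.133 in H, OC2. The spread was thus widest in the normoxic controls, where replicate 2 had higher values than replicate 1 for stress genes such as GDF15 and CHAC1 that are described further on.

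ONECUT2 and hypoxia did not add up for a small set of genes. The interaction was called (limma, Benjamini-Hochberg adjusted p under 0.05) above 0 for 15 genes, 0.123% of those tested, and below 0 for 15 genes, again 0.123%. All 30 had an interaction of more than 1 on the log2 scale in size. At the looser limits of more than 1 in size and an unadjusted P under 0.05, 292 genes (2.38%) were above 0 and 164 (1.34%) below. An unadjusted P under 0.05 of any size was reached by 1283 genes above 0 (10.5%) and 812 below (6.63%). The count of calls depended on single libraries. No gene was called without H, EV replicate 1 or without H, OC2 replicate 1, 1 gene was called without H, EV replicate 2 and 1 without N, OC2 replicate 1, neither among the 30, and 163 genes were called above and 62 below 0 without N, EV replicate 1. In each of the 8 fits that left out 1 library, all 30 called genes kept their sign. They were chosen on these same libraries, which makes a kept sign likely, so it supports nothing.

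Genes were classed by whether the joint change was larger or smaller in size than the sum of the single changes, whatever their signs. Since the interaction is the joint change minus the sum, its sign leaves only some classes open, and the class counts are a description. Among the 15 genes above 0 it was a larger rise for 9, of which GSTA1, GSTA2 and KITLG had a sum below 0, and for 6 it was smaller in size than the sum, which was a fall. For all 15 genes below 0 the sum was a rise and the joint change was smaller in size. Among all genes tested, 23.2% were in the class of a larger rise, 34.3% in that of a smaller fall, 27.1% in that of a smaller rise and 15.4% in that of a larger fall. At the looser limits the genes above 0 held 124 larger rises and 168 smaller falls, and the genes below 0 held 154 smaller rises and 10 larger falls. The libraries of H, OC2 were both above the other 6 for 10 of the 15 genes above 0, and for 1 of the 15 below 0 (ID2), against 1839 of all 12244 genes tested. The genes were chosen on these same values, so the count supports nothing.

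**Figure D1:**
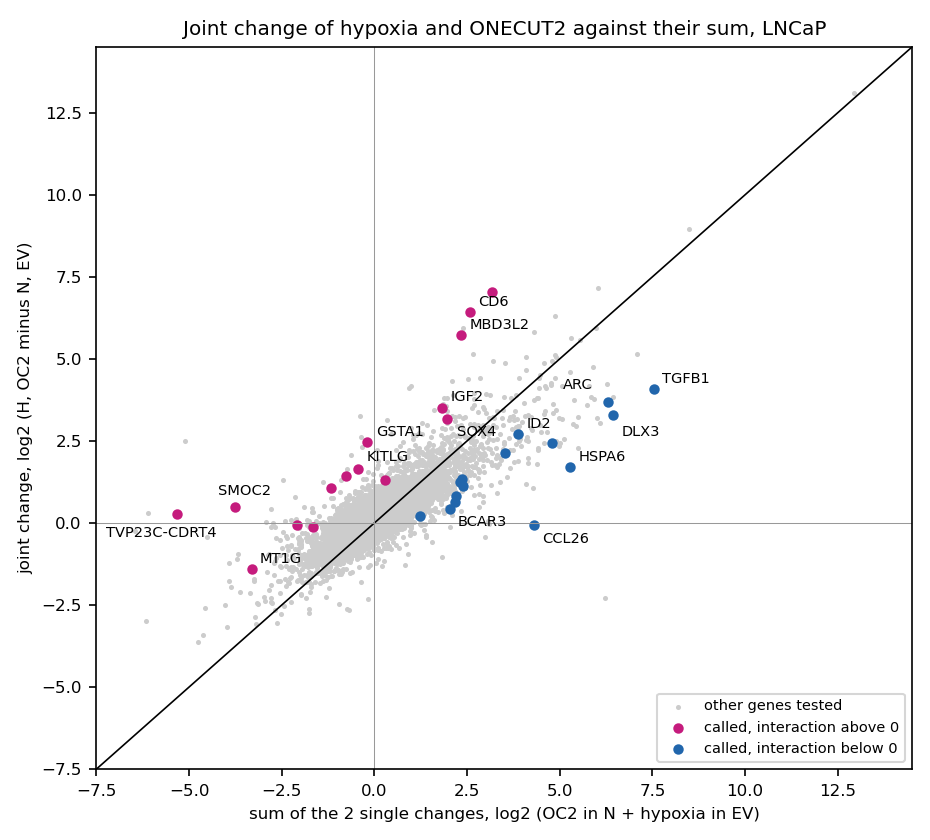
Joint change of each gene tested (H, OC2 minus N, EV, vertical axis, log2) against the sum of the change with ONECUT2 in normoxia and with hypoxia in empty vector cells (horizontal axis, log2), from group means of 2 libraries. On the diagonal the changes add up; the 15 called genes with an interaction above 0 are magenta and lie above it, and the 15 below 0 are blue, lie under it and all have a positive sum.

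The same genes can be read through the single comparisons of the fit, which share libraries with the interaction and are given as a description. Of all genes tested, ONECUT2 raised 3.88% and lowered 2.04% in normoxia, and raised 7.03% and lowered 5.13% in hypoxia. All 15 genes with an interaction above 0 rose with ONECUT2 in hypoxia, while 5 rose, 4 fell and 6 did not pass the test with ONECUT2 in normoxia. With hypoxia in empty vector cells 10 of these 15 genes fell, 3 rose and 2 did not pass the test. All 15 genes with an interaction below 0 rose with hypoxia in empty vector cells, and 12 of them also rose with ONECUT2 in normoxia. In hypoxia ONECUT2 lowered 5 of the 15, raised 2 and left 8 that did not pass the test.

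**Figure D2:**
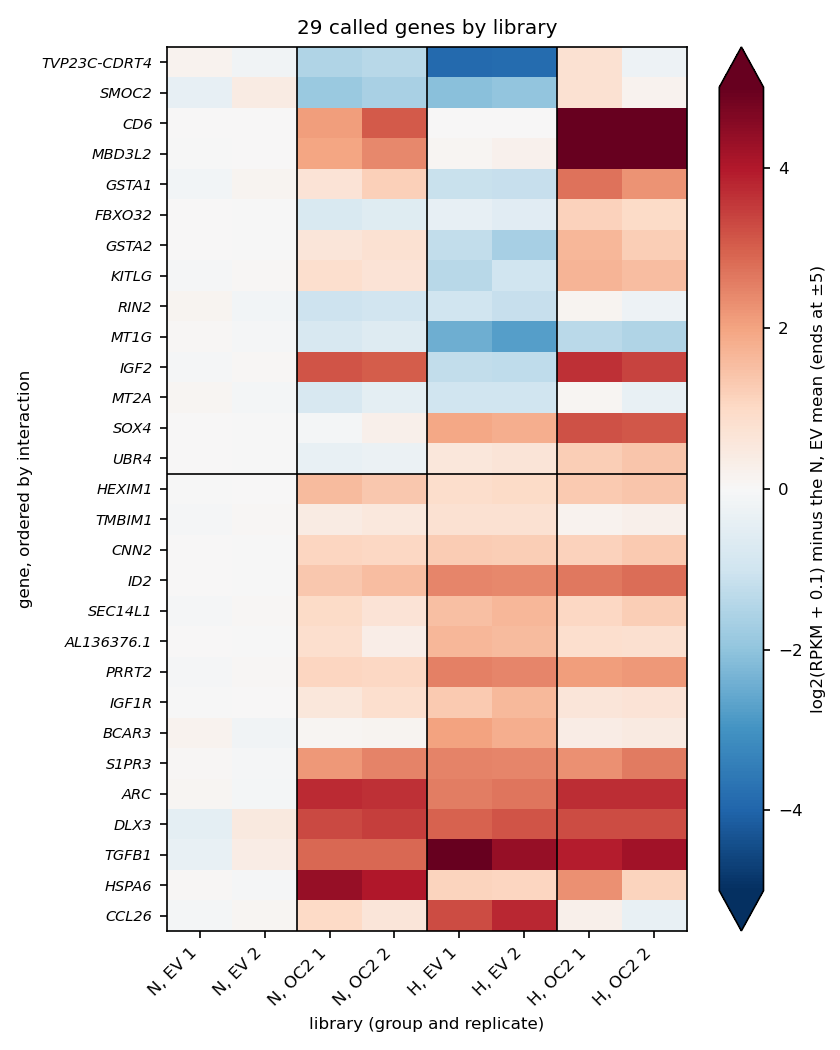
29 of the 30 called genes (rows, ordered by interaction) in the 8 LNCaP libraries (columns, by group and replicate), as log2(RPKM + 0.1) minus the mean of the 2 N, EV libraries. Genes above the horizontal line, from TVP23C-CDRT4 to UBR4, have an interaction above 0 and are higher in H, OC2 than in H, EV. Genes under it, from HEXIM1 to CCL26, have one below 0 and are raised in H, EV; colours end at ±5.

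CD6 and MBD3L2 passed the filter only through H, OC2, so their low values elsewhere come with their selection. CD6, a T-cell surface receptor, was listed at 0 in all 4 empty vector libraries, and had 0.320 and 0.733 RPKM in N, OC2 and 9.86 and 7.30 RPKM in H, OC2. Its interaction of 3.86 (SE 0.57, adjusted p = 0.0445) therefore rests on the ONECUT2 libraries alone. CD6 also lay just inside the filter, which left out genes with a 0 beside more than 10 RPKM. MBD3L2, of the MBD3-like family, did not exceed 0.0319 RPKM in the empty vector libraries and had 0.344 and 0.497 RPKM in N, OC2. In H, OC2 it reached 5.69 and 6.21 RPKM (interaction 3.39, SE 0.48, adjusted p = 0.0389), and since near-identical copies of it exist its reads may be shared among them. Folds of such low genes are understated by the added 0.1 RPKM.

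GSTA1 and GSTA2, neighbouring genes for alpha-class glutathione transferases that conjugate electrophiles, moved alike. In GRCh37 GSTA1 lies at chromosome 6, 52656169 to 52668658, and GSTA2 at 52614885 to 52628273, both on the minus strand. Reads of this similar pair may not be told apart, which was not tested. Their RefSeq promoters (build GRCh38.p14) are shown as a description, since bases before the start cannot say whether reads were shared. The 250 bases before each start (chr6:52803817-52804066 for GSTA1 and chr6:52763476-52763725 for GSTA2, minus strand, 5′ to 3′) differ at 7 positions, an identity of 97.2%, and the capitals mark the bases that differ.
GSTA1: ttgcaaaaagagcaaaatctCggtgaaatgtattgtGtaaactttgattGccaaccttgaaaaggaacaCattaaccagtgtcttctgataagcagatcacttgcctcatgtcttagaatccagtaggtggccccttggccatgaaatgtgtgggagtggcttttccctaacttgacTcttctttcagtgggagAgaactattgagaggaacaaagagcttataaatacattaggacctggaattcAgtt
GSTA2: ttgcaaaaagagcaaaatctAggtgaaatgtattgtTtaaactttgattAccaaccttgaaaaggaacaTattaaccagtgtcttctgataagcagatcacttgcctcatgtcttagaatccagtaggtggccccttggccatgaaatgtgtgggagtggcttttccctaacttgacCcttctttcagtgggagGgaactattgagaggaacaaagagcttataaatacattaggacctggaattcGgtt
GSTA1 had 14.1 and 16.7 RPKM in N, EV, 24.8 and 35.2 in N, OC2, 7.03 and 6.87 in H, EV, and 100.1 and 73.0 RPKM in H, OC2. GSTA2 had 2.91 and 2.76 RPKM in N, EV, 4.31 and 4.90 in N, OC2, 1.16 and 0.819 in H, EV, and 9.15 and 6.77 RPKM in H, OC2. For both genes the 4 groups did not overlap, H, EV was lowest and H, OC2 highest. GSTA1 rose with ONECUT2 by 0.94 in normoxia (adjusted p = 0.028) and by 3.60 in hypoxia (interaction 2.66, SE 0.28, adjusted p = 0.0193). The interaction of GSTA2 was 2.21 (SE 0.30, adjusted p = 0.0361). Hypoxia lowered both genes in empty vector cells and raised both in ONECUT2 cells.

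IGF2 and KITLG, which encode an insulin-like growth factor and the ligand of the KIT receptor, were likewise lowest in H, EV and highest in H, OC2. IGF2 stood at 0.788 and 0.870 RPKM in N, EV, 8.01 and 7.41 in N, OC2, 0.291 and 0.289 in H, EV, and 11.6 and 9.45 RPKM in H, OC2. It rose with ONECUT2 at both oxygen levels, by 3.07 and 4.76 on the log2 scale, and fell with hypoxia by 1.25 in empty vector cells (interaction 1.69, SE 0.26, adjusted p = 0.0468). KITLG had 1.01 and 1.11 RPKM in N, EV, 1.97 and 1.75 in N, OC2, 0.344 and 0.478 in H, EV, and 3.71 and 3.31 RPKM in H, OC2 (interaction 2.08, SE 0.32, adjusted p = 0.0468). The reads of IGF2 may be shared with the overlapping readthrough gene INS-IGF2. IGF2 passed the filter only through ONECUT2 libraries, so its low values with empty vector come with its selection.

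SOX4, a transcription factor of progenitor cells and neuronal differentiation, was a gene that hypoxia raised in both vectors. It had 20.6 and 20.01 RPKM in N, EV, 19.0 and 23.9 in N, OC2, 77.1 and 72.6 in H, EV, and 188 and 176 RPKM in H, OC2. In normoxia the vectors overlapped and the change with ONECUT2 was 0.07 (adjusted p = 0.764), while in hypoxia it was 1.28 (interaction 1.21, SE 0.17, adjusted p = 0.0389). UBR4, a ubiquitin ligase of the N-degron pathway, stood at 23.2 and 23.1 RPKM in N, EV, 17.9 and 18.9 in N, OC2, 34.4 and 36.5 in H, EV, and 54.6 and 60.7 RPKM in H, OC2. Its interaction was 1.02 (SE 0.15, adjusted p = 0.0389), with higher values for ONECUT2 than for empty vector in hypoxia and lower values in normoxia.

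For the other 6 genes above 0 the joint change was smaller in size than the sum of the single changes. FBXO32, the muscle atrophy ubiquitin ligase atrogin-1, fell with ONECUT2 in normoxia and with hypoxia in empty vector cells, but rose with both. It had 3.06 and 3.04 RPKM in N, EV, 1.77 and 1.95 in N, OC2, 2.26 and 2.02 in H, EV, and 6.98 and 5.94 RPKM in H, OC2 (interaction 2.23, SE 0.23, adjusted p = 0.0193). Both H, OC2 libraries were thus above all others, although each input alone lowered the gene. The metallothioneins MT2A and MT1G encode small proteins that bind zinc and copper, and both lie on chromosome 16. MT2A stood at 277 and 237 RPKM in N, EV, 147 and 183 in N, OC2, 128 and 127 in H, EV, and 273 and 198 RPKM in H, OC2. H, OC2 overlapped with N, EV for MT2A, and the interaction was 1.51 (SE 0.23, adjusted p = 0.0468). MT1G stood at 14.2 and 12.9 RPKM in N, EV, 7.70 and 8.50 in N, OC2, 2.43 and 1.94 in H, EV, and 5.30 and 4.74 RPKM in H, OC2, so that it stayed below normoxia with an interaction of 1.90 (SE 0.22, adjusted p = 0.0206). The interaction of MT1X, a metallothionein looked up after its values were seen, was 1.08 (adjusted p = 0.119).

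RIN2, a regulator of the endosomal GTPase RAB5, and SMOC2, a secreted calcium-binding matrix protein, fell with each input and returned with both. RIN2 stood at 3.10 and 2.50 RPKM in N, EV, 1.31 and 1.38 in N, OC2, 1.33 and 1.19 in H, EV, and 3.09 and 2.32 RPKM in H, OC2 (interaction 2.04, SE 0.30, adjusted p = 0.0445). SMOC2 stood at 1.25 and 2.27 RPKM in N, EV, 0.393 and 0.479 in N, OC2, 0.319 and 0.361 in H, EV, and 2.97 and 1.94 RPKM in H, OC2 (interaction 4.25, SE 0.47, adjusted p = 0.0206). TVP23C-CDRT4 had the largest interaction, 5.58 (SE 0.54, adjusted p = 0.0193). It is a readthrough gene at chromosome 17, 15339338 to 15466875 in GRCh37, that overlaps TVP23C and CDRT4 on the same strand. It had 1.54 and 1.21 RPKM in N, EV, 0.410 and 0.461 in N, OC2, 0.000369 and 0.000727 in H, EV, and 2.403 and 1.13 RPKM in H, OC2. The genes it overlaps had no such pattern, with an interaction of 0.31 for TVP23C (adjusted p = 0.469) and 0.14 for CDRT4 (adjusted p = 0.809). The part of reads shared among the 3 gene models was not tested.

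**Figure D3:**
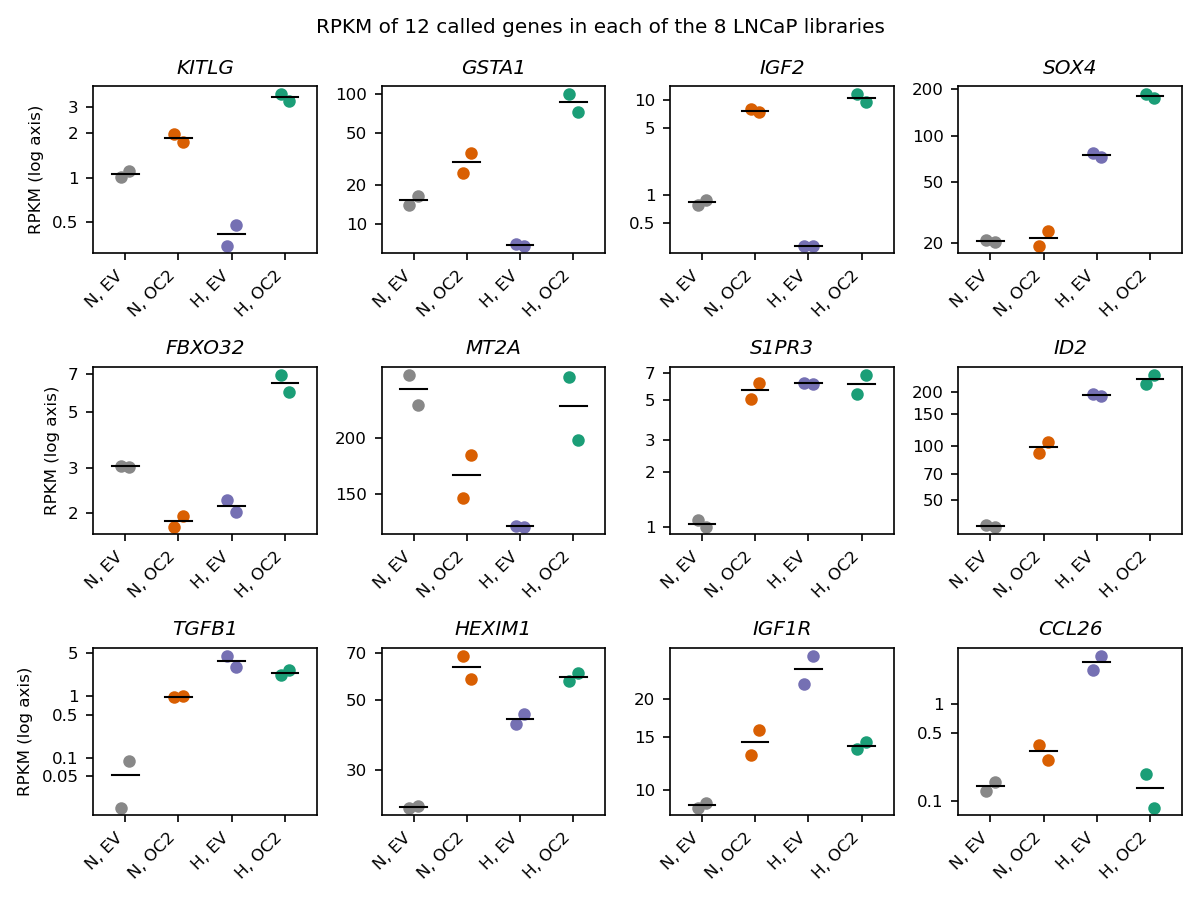
RPKM (vertical axis, logarithmic, with its own range in each panel) of 12 called genes in the 4 groups of LNCaP libraries; dots are the 2 libraries of a group and the bar is their mean. KITLG, GSTA1, IGF2, SOX4 and FBXO32 are highest in H, OC2, whereas S1PR3 and ID2 are raised by each input and by less than the sum with both, and IGF1R and CCL26 are high in H, EV and lower in H, OC2.

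Most genes with an interaction below 0 had 1 of 2 shapes. In the first, each input alone raised the gene and both together raised it little further. S1PR3, a receptor for sphingosine-1-phosphate at chromosome 9, 91605778 to 91620070 in GRCh37, had 1.08 and 0.998 RPKM in N, EV, 5.03 and 6.22 in N, OC2, 6.21 and 6.14 in H, EV, and 5.40 and 6.88 RPKM in H, OC2. The 3 groups with an input overlapped, so the change with ONECUT2 was 2.32 in normoxia and -0.02 in hypoxia (interaction -2.34, SE 0.25, adjusted p = 0.0193). CNN2, an actin-binding calponin, had 7.78 and 7.75 RPKM in N, EV, 16.6 and 16.2 in N, OC2, 19.0 and 18.2 in H, EV, and 17.4 and 19.6 RPKM in H, OC2 (interaction -1.08, SE 0.16, adjusted p = 0.0405). DLX3, a homeobox factor of epithelial and bone development, had 0.133 and 0.366 RPKM in N, EV, 3.14 and 3.48 in N, OC2, 2.48 and 2.85 in H, EV, and 3.08 and 3.10 RPKM in H, OC2 (interaction -3.16, SE 0.43, adjusted p = 0.0361). In each of these 3 genes all 6 libraries with an input were above both N, EV libraries. The genes were chosen on these same values, and the share of all genes with this order was not counted, so the order supports nothing. DLX3 passed the filter only through libraries with an input, so its low values in N, EV come with its selection.

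HEXIM1 and ARC were higher with ONECUT2 than with hypoxia and did not rise further with both. HEXIM1, an inhibitor of the transcription elongation factor P-TEFb, had 22.9 and 23.2 RPKM in N, EV, 68.7 and 58.2 in N, OC2, 42.0 and 45.1 in H, EV, and 57.2 and 60.7 RPKM in H, OC2 (interaction -1.02, SE 0.16, adjusted p = 0.0468). ARC, an activity-regulated gene of neurons, had 0.0581 and 0.0361 RPKM in N, EV, 1.83 and 1.73 in N, OC2, 0.774 and 0.847 in H, EV, and 1.81 and 1.80 RPKM in H, OC2 (interaction -2.61, SE 0.36, adjusted p = 0.0367). Over the alternative settings the interaction of ARC lay between -2.72 and -0.78. ARC passed the filter only through ONECUT2 libraries, so its low values with empty vector come with its selection. For both genes ONECUT2 still raised expression in hypoxia, by 0.44 and 1.07 on the log2 scale. HSPA6, a strictly inducible heat shock protein, had 0.267 and 0.245 RPKM in N, EV, 7.23 and 5.63 in N, OC2, 0.671 and 0.644 in H, EV, and 1.65 and 0.663 RPKM in H, OC2. HSPA6 reached 1 RPKM in only 1 library outside N, OC2, so its low values elsewhere come with its selection. It had neither shape, since with both inputs it was below ONECUT2 alone. Its rise with ONECUT2 was 4.19 in normoxia and 0.61 in hypoxia, where it did not pass the test (interaction -3.58, SE 0.51, adjusted p = 0.0405).

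ID2 and TGFB1 came from the list of the TGF-beta pathway. ID2 encodes an inhibitor of helix-loop-helix factors and TGFB1 the cytokine itself. ID2 had 36.1 and 35.4 RPKM in N, EV, 91.4 and 105 in N, OC2, 195 and 191 in H, EV, and 221 and 250.2 RPKM in H, OC2. The 4 groups did not overlap and ID2 was highest with both inputs, but ONECUT2 added 1.45 in normoxia and 0.29 in hypoxia (interaction -1.17, SE 0.15, adjusted p = 0.0339). TGFB1 had 0.0155 and 0.0891 RPKM in N, EV, 0.972 and 0.991 in N, OC2, 4.52 and 2.94 in H, EV, and 2.16 and 2.62 RPKM in H, OC2 (interaction -3.47, SE 0.45, adjusted p = 0.0339). Over the alternative settings the interaction of TGFB1 lay between -3.82 and -1.38. It passed the filter only through the hypoxic libraries, so its low values in normoxia come with its selection. TGFB1 overlaps HNRNPUL1, CCDC97 and TMEM91 on the other strand, and whether the counting used strand is not given in the sources used here. The RefSeq promoter of ID2, a gene that rose with hypoxia, is shown with matches to the core of the hypoxia response element (ACGTG or GCGTG on either strand) in capitals, for the 250 bases before its start (build GRCh38.p14, chr2:8681806-8682055, plus strand, 5′ to 3′). It holds 3 such matches and none to the ONECUT core motif (ATCGAT or ATTGAT on either strand).
ID2: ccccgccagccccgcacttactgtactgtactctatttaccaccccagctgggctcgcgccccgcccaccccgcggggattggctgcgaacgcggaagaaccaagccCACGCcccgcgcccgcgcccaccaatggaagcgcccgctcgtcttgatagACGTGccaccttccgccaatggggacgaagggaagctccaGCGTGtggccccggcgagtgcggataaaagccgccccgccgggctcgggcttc
Such matches are common, since of all 27305 RefSeq promoters (300 bases, from 250 before to 50 after the start) 48.4% held a hypoxia core and 7.12% the ONECUT core, and of the 9893 tested genes with a promoter there 63.8% and 3.89% did. Only 20 of the 30 called genes had a promoter there, 66.7%, so a comparison of the called genes with all genes is void.

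In the second shape hypoxia raised the gene in empty vector cells and ONECUT2 lowered it in hypoxia. CCL26, the chemokine eotaxin-3, stood at 0.125 and 0.155 RPKM in N, EV, 0.377 and 0.265 in N, OC2, 2.20 and 3.12 in H, EV, and 0.188 and 0.0841 RPKM in H, OC2. It fell by 3.56 with ONECUT2 in hypoxia, to values that overlapped with N, EV (interaction -4.36, SE 0.53, adjusted p = 0.0289). Over the alternative settings the interaction of CCL26 lay between -4.69 and -1.89. BCAR3, an adaptor protein of integrin and antiestrogen resistance signaling, had 2.56 and 2.00 RPKM in N, EV, 2.42 and 2.47 in N, OC2, 9.49 and 8.32 in H, EV, and 2.998 and 3.16 RPKM in H, OC2 (interaction -1.60, SE 0.24, adjusted p = 0.0445). IGF1R, the receptor of insulin-like growth factors at chromosome 15, 99191768 to 99507759 in GRCh37, had 8.76 and 9.09 RPKM in N, EV, 13.1 and 15.9 in N, OC2, 22.5 and 27.9 in H, EV, and 13.7 and 14.4 RPKM in H, OC2 (interaction -1.52, SE 0.20, adjusted p = 0.0361). In all 3 genes both H, EV libraries were above the other 6, but CCL26 passed the filter only through H, EV, so its low values elsewhere come with its selection. The 3 genes were chosen on these same values, and the share of all genes with this order was not counted, so the order supports nothing.

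TMBIM1 and AL136376.1 had the same shape. TMBIM1, a membrane protein of the BAX inhibitor family, had 124 and 133 RPKM in N, EV, 171 and 186 in N, OC2, 218 and 216 in H, EV, and 144 and 152 RPKM in H, OC2 (interaction -1.02, SE 0.13, adjusted p = 0.0339). AL136376.1 had 82.5 and 78.6 RPKM in N, EV, 144 and 101 in N, OC2, 257 and 240.0 in H, EV, and 145 and 140.1 RPKM in H, OC2 (interaction -1.39, SE 0.21, adjusted p = 0.0468). The whole span of AL136376.1 overlaps another gene on the other strand, and TMBIM1 overlaps PNKD there. PNKD had an interaction of -0.27 (adjusted p = 0.41) and did not pass the test. Between the shapes lay SEC14L1, a lipid-binding protein, with 31.1 and 33.5 RPKM in N, EV, 63.1 and 51.8 in N, OC2, 91.2 and 101 in H, EV, and 66.9 and 75.5 RPKM in H, OC2 (interaction -1.26, SE 0.18, adjusted p = 0.0389). PRRT2, a presynaptic protein, had 1.82 and 2.02 RPKM in N, EV, 4.11 and 4.05 in N, OC2, 11.4 and 10.8 in H, EV, and 8.48 and 8.86 RPKM in H, OC2 (interaction -1.40, SE 0.19, adjusted p = 0.0361). For both genes H, EV was highest without overlap and the difference with ONECUT2 in hypoxia did not pass the test (adjusted p = 0.0552 for SEC14L1 and 0.117 for PRRT2).

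At the looser limits the second shape had 54 of the 164 genes below 0, counted as a rise with hypoxia in empty vector cells and a fall with ONECUT2 in hypoxia. Of the 164 genes 54 rose with each input alone, and IGF1R, METTL7A and TMBIM1 belong to both sets. Of all genes tested 18.6% rose with hypoxia in empty vector cells. With ONECUT2 3.88% rose in normoxia and 5.13% fell in hypoxia. The 164 genes were chosen on these same changes, so both counts are only a description. The following members were picked after their values were seen, and none has a called interaction. BCL3, an IκB family coactivator, had 4.64 and 9.38 RPKM in N, EV, 7.81 and 7.71 in N, OC2, 48.4 and 38.7 in H, EV, and 10.1 and 13.9 RPKM in H, OC2 (interaction -2.09, SE 0.41, adjusted p = 0.0767). NFKBIA, which encodes IκBα, had 136 and 147 RPKM in N, EV, 110.3 and 142 in N, OC2, 557 and 537 in H, EV, and 176 and 263 RPKM in H, OC2 (interaction -1.17, SE 0.26, adjusted p = 0.0898). PER1, a circadian repressor, had 11.8 and 16.1 RPKM in N, EV, 18.1 and 17.9 in N, OC2, 57.8 and 56.7 in H, EV, and 26.7 and 31.8 RPKM in H, OC2 (interaction -1.36, SE 0.22, adjusted p = 0.0505). In all 3 the hypoxic rise was 1.95 or more on the log2 scale without ONECUT2 and 0.78 or less with it.

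Of the 292 genes above 0 at the looser limits, 143 rose with ONECUT2 in hypoxia but not in normoxia at an adjusted p under 0.05 in limma, and 24 rose at both oxygen levels. Of all genes tested 7.03% rose with ONECUT2 in hypoxia and 3.88% in normoxia. The 292 genes were chosen on the difference of these same changes, so the counts are only a description. TUBA1A, the neuronal alpha-tubulin, was picked after its values were seen. It had 65.6 and 126 RPKM in N, EV, 158 and 164 in N, OC2, 203 and 188 in H, EV, and 1175 and 995 RPKM in H, OC2, with H, OC2 far above all others (interaction 1.64, SE 0.35, adjusted p = 0.0841). SSTR2, a somatostatin receptor of neuroendocrine cells and also picked afterwards, had 0.0932 and 0.150 RPKM in N, EV, 1.477 and 1.45 in N, OC2, 0.193 and 0.174 in H, EV, and 5.80 and 7.40 RPKM in H, OC2 (interaction 1.72, SE 0.38, adjusted p = 0.0883). SSTR2 passed the filter only through ONECUT2 libraries, so its low values with empty vector come with its selection.

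Gene lists were described by their counts and medians, beside an interaction median of 0.06 over all genes tested. List members that are named without a call were picked after their values were seen. Of 25 lists the integrated stress response had the highest median, 0.81 over 20 members. This response, run by ATF4, raises amino acid synthesis and transport when translation is curbed. None of its 20 members was called, but 14 were above 0 with an unadjusted P under 0.05 (10.5% of all genes were) and 1 below, PPP1R15A. ATF4 itself had 278 and 392 RPKM in N, EV, 190.1 and 212 in N, OC2, 197 and 198 in H, EV, and 232 and 201 RPKM in H, OC2 (interaction 0.84, SE 0.22, adjusted p = 0.124). DDIT3, the proapoptotic factor CHOP, had 45.9 and 62.1 RPKM in N, EV, 33.2 and 33.7 in N, OC2, 45.2 and 37.2 in H, EV, and 69.5 and 58.2 RPKM in H, OC2 (interaction 1.30, SE 0.23, adjusted p = 0.0621). Both genes had their lowest library in N, OC2. CHAC1, a glutathione-degrading target of ATF4, had 7.86 and 16.2 RPKM in N, EV, 7.14 and 6.21 in N, OC2, 4.26 and 3.63 in H, EV, and 6.75 and 7.11 RPKM in H, OC2 (interaction 1.55, SE 0.40, adjusted p = 0.118). Relative to the mean of N, EV, the list mean was -0.43 and -0.37 on the log2 scale in N, OC2, -0.48 and -0.58 in H, EV, and -0.11 and -0.30 in H, OC2, so each input alone went with lower values than both together. N, EV replicate 2 was the highest library, and without it the list median was 0.58 with 11 of 20 members above 0 at an unadjusted P under 0.05.

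p53 targets had a median of 0.22 over 19 members, of which 8 were above 0 with an unadjusted P under 0.05 (42.1%, against 10.5% of all genes) and none below. The median was 0.19 to 0.44 over the fits without 1 library, with the highest value without H, OC2 replicate 2, and the count above 0 was 4 without H, OC2 replicate 1 and 5 without N, OC2 replicate 1. BBC3, the proapoptotic factor PUMA, had 3.53 and 4.18 RPKM in N, EV, 2.66 and 3.09 in N, OC2, 3.41 and 2.83 in H, EV, and 6.01 and 5.57 RPKM in H, OC2 (interaction 1.28, SE 0.24, adjusted p = 0.0696). TP53I3, a quinone oxidoreductase, had 2.76 and 5.34 RPKM in N, EV, 5.07 and 6.68 in N, OC2, 3.43 and 3.26 in H, EV, and 11.3 and 11.3 RPKM in H, OC2 (interaction 1.14, SE 0.38, adjusted p = 0.192). The largest value, 2.34 for GDF15 (SE 0.73, adjusted p = 0.171), came with 199 and 858 RPKM in the 2 N, EV libraries, a wider gap than in any other group. In 10 of the 19 members both H, OC2 libraries were above the other 6, as in 1839 of the 12244 genes tested, and none was called.

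Androgen-induced genes had the lowest list median, -0.26 over 32 members. None was called, 13 were below 0 with an unadjusted P under 0.05 (6.63% of all genes were) and 1, CAMKK2, above. Of the 32 genes 18 rose with hypoxia in empty vector cells and 10 in ONECUT2 cells (18.6% and 18.9% of all genes did). With ONECUT2, 12 fell in hypoxia and 4 in normoxia (5.13% and 2.04% of all genes did). FKBP5, a co-chaperone of steroid receptors, had 66.2 and 58.2 RPKM in N, EV, 62.6 and 67.8 in N, OC2, 119 and 131 in H, EV, and 75.7 and 87.5 RPKM in H, OC2 (interaction -0.69, SE 0.16, adjusted p = 0.104). TRPM8, a cold-sensing channel of prostate epithelium, had 7.21 and 5.37 RPKM in N, EV, 4.98 and 9.05 in N, OC2, 44.96 and 43.7 in H, EV, and 23.3 and 29.2 RPKM in H, OC2 (interaction -0.87, SE 0.36, adjusted p = 0.271). KLK3 had 1995 and 2045 RPKM in N, EV, 1934 and 1842 in N, OC2, 3997 and 3718 in H, EV, and 3032 and 2809 RPKM in H, OC2 (interaction -0.30, SE 0.14, adjusted p = 0.307). The hypoxic level was thus lower with ONECUT2 in all 3 genes without overlap, while the normoxic libraries overlapped for FKBP5 and TRPM8. The number of androgen-induced genes below 0 was lowest without H, OC2 replicate 1, at 5 of 32.

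The pan-NET genes are a list the study drew from other samples as higher in poorly differentiated neuroendocrine tumors. Of its 87 genes used here 33 were expressed enough to be tested, a filter that genes raised in only 1 group can pass, so the counts describe these 33 alone. Their median was 0.38, and 24 had a value above 0 and 9 one below. At the looser limits 7 were above 0 (2.38% of all genes were) and none below (1.34%). An unadjusted P under 0.05 of any size was reached by 8 above 0 and by 1 below, SYT4 (interaction -0.60, SE 0.23), against 10.5% and 6.63% of all genes. With no limit on low values the median was 0.20 over 82 pan-NET genes, beside 0.06 over all 17701 genes. FXYD6, an ion transport regulator, had 0.313 and 0.216 RPKM in N, EV, 0.130 and 0.395 in N, OC2, 0.231 and 0.163 in H, EV, and 4.55 and 2.48 RPKM in H, OC2 (interaction 3.65, SE 0.64, adjusted p = 0.0604). RGS16, which curbs G protein signaling, had 0.664 and 0.713 RPKM in N, EV, 0.975 and 1.11 in N, OC2, 0.436 and 0.498 in H, EV, and 4.08 and 3.07 RPKM in H, OC2 (interaction 2.15, SE 0.34, adjusted p = 0.0503). KIAA1211 had 3.498 and 2.81 RPKM in N, EV, 3.27 and 3.57 in N, OC2, 3.83 and 3.94 in H, EV, and 11.5 and 8.97 RPKM in H, OC2 (interaction 1.24, SE 0.25, adjusted p = 0.0767). In all 3 genes both H, OC2 libraries were above the other 6, an order that comes with selection for FXYD6, which passed the filter only through H, OC2, and in part for RGS16, which had 1 other library above 1 RPKM.

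Of the neuronal and neuroendocrine factors followed by name, MYT1 had 2.17 and 1.98 RPKM in N, EV, 1.59 and 1.98 in N, OC2, 2.98 and 2.68 in H, EV, and 4.01 and 3.49 RPKM in H, OC2 (interaction 0.61, SE 0.26, adjusted p = 0.28). ZNF711 had 3.03 and 2.32 RPKM in N, EV, 1.92 and 1.88 in N, OC2, 2.30 and 2.35 in H, EV, and 4.31 and 3.59 RPKM in H, OC2 (interaction 1.19, SE 0.27, adjusted p = 0.0903). H, OC2 was highest for both without overlap. MYT1L, INSM1, ONECUT1, ONECUT3 and CHGA did not pass the filter, and the highest of them in any library was MYT1L at 0.313 RPKM in N, EV replicate 1. PEG10, a retrotransposon-derived gene of neuroendocrine prostate tumors, had 11.5 and 10.5 RPKM in N, EV, 24.8 and 21.8 in N, OC2, 22.8 and 24.8 in H, EV, and 28.6 and 36.2 RPKM in H, OC2 (interaction -0.64, SE 0.20, adjusted p = 0.163). It rose with each input alone, and the joint level was less than their sum. ENO2 rose with hypoxia from 5.16 and 11.9 RPKM to 68.3 and 57.8 RPKM in empty vector cells and stood at 80.5 and 66.7 RPKM in H, OC2 (interaction 0.11, SE 0.44, adjusted p = 0.925). The synaptic vesicle gene SYP ranged from 0.879 to 1.77 RPKM (interaction 0.34, SE 0.44, adjusted p = 0.731).

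**Figure D4:**
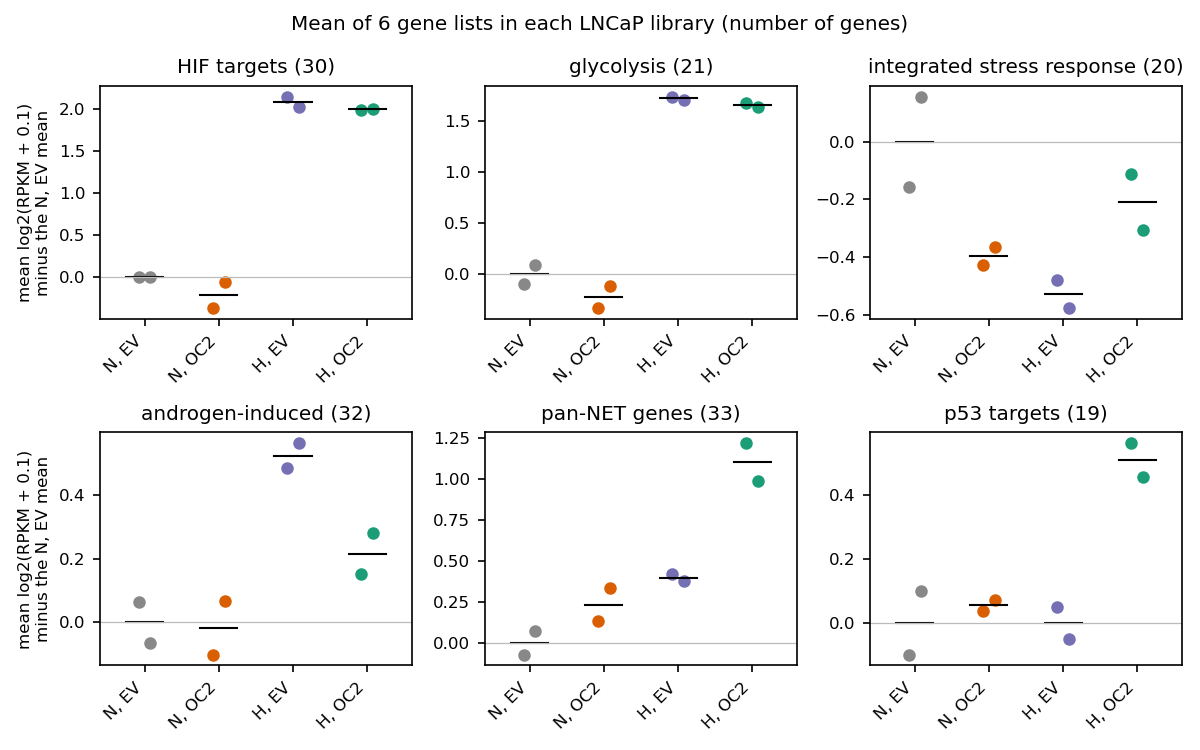
Mean log2(RPKM + 0.1) of 6 gene lists in each LNCaP library, minus the mean of the 2 N, EV libraries (vertical axis, log2, with its own range in each panel; dots are libraries, bars group means, the number of genes in brackets). HIF targets and glycolysis genes stand about as high in H, OC2 as in H, EV, androgen-induced genes stand lower there, pan-NET and p53 target genes are highest in H, OC2, and the integrated stress response is highest in N, EV replicate 2.

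Genes of the hypoxia response stood on both sides of 0. The 30 HIF targets had a median of 0.13, none was called, and 7 were above and 5 below 0 with an unadjusted P under 0.05 (23.3% and 16.7%, against 10.5% and 6.63% of all genes). Without N, OC2 replicate 1 the median was -0.02 with 3 above and 6 below, without N, OC2 replicate 2 it was 0.18 with 12 above and 5 below, and without H, EV replicate 1 it was 0.22 with 8 above and 2 below. Without H, EV replicate 2 it was 0.03 with 3 above and 4 below, without H, OC2 replicate 1 it was 0.11 with 3 above and 3 below, and without N, EV replicate 1 it was 0.21 with 5 above and 5 below. KDM3A, a HIF-induced histone demethylase, had 19.2 and 17.6 RPKM in N, EV, 16.3 and 18.5 in N, OC2, 62.4 and 54.9 in H, EV, and 94.0 and 95.4 RPKM in H, OC2 (interaction 0.77, SE 0.16, adjusted p = 0.0822). NDRG1, a stress-responsive gene also induced by androgen, had 131 and 136 RPKM in N, EV, 111 and 139 in N, OC2, 1089 and 997 in H, EV, and 633 and 716 RPKM in H, OC2 (interaction -0.53, SE 0.18, adjusted p = 0.193). The 2 genes stood on opposite sides of additivity, and neither was called. CA9, a carbonic anhydrase of hypoxic tumors, was 5.38 and 3.56 RPKM in H, EV and 3.85 and 3.05 RPKM in H, OC2. Its interaction of 1.53 (SE 0.61, adjusted p = 0.256) rests on low normoxic values, 0.473 and 0.531 RPKM with empty vector and 0 and 0.171 RPKM with ONECUT2. CA9 passed the filter only through hypoxic libraries, so these values come with its selection. VEGFA, the main angiogenic ligand, had 445 and 370.0 RPKM in H, EV and 459 and 420.2 RPKM in H, OC2 (interaction 0.34, SE 0.16, adjusted p = 0.315). The 21 glycolysis genes had a median of 0.15, with 3 above and 1 below 0 at an unadjusted P under 0.05 (14.3% and 4.76%, near the 10.5% and 6.63% of all genes). The median was 0.28 without N, EV replicate 1, 0.27 without N, OC2 replicate 2, 0.07 without N, EV replicate 2 and 0.09 without N, OC2 replicate 1. Of the oxygen sensing genes, HIF1A had an interaction of -0.11 (SE 0.18, adjusted p = 0.81) and EPAS1 one of -0.55 (SE 0.41, adjusted p = 0.526).

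In the TGF-beta pathway list, beside the called TGFB1 and ID2, ID1 had 18.4 and 12.8 RPKM in N, EV, 35.7 and 40.6 in N, OC2, 66.0 and 76.2 in H, EV, and 79.8 and 93.2 RPKM in H, OC2 (interaction -1.02, SE 0.25, adjusted p = 0.107). The order of groups was that of ID2. Over the 24 members of the list the median was -0.11. At an unadjusted P under 0.05, 4 were above and 5 below 0 (16.7% and 20.8%, against 10.5% and 6.63% of all genes). The median was above 0 without N, OC2 replicate 2 (0.03) and without H, EV replicate 2 (0.15). SMAD3, the TGF-beta signal transducer, had 7.94 and 8.01 RPKM in N, EV, 9.88 and 8.98 in N, OC2, 8.45 and 7.49 in H, EV, and 13.4 and 10.8 RPKM in H, OC2 (interaction 0.35, SE 0.20, adjusted p = 0.414). Of 15 EMT regulators TGFB1 alone was called. At an unadjusted P under 0.05, 2 were above 0 and 3 below (13.3% and 20%, against 10.5% and 6.63% of all genes). Their median was 0.06, with 0.01 to 0.19 over the fits without 1 library and 0.33 with a limit of 5 RPKM. FN1, fibronectin, was 513 and 487 RPKM in H, EV and 324 and 336 RPKM in H, OC2 (interaction -0.65, SE 0.17, adjusted p = 0.132).

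The other lists held no called gene. Their median interactions are followed in parentheses by the range over the fits without 1 library and by the members with an unadjusted P under 0.05 in all 8 libraries. Of all genes tested 10.5% were above and 6.63% below 0 at that P, so small counts in a list are not results about its members. For matrix, oxygen and mitochondrial genes the median was -0.09 for 7 inflammatory cytokines (-0.19 to 0.00, with 2 below), 0.11 for 11 collagen hydroxylases and lysyl oxidases (0.02 to 0.36, with 5 above and 1 below), 0.12 for 45 respiratory chain subunits (0.01 to 0.13, with 2 above), 0.15 for 15 genes of hypoxic mitophagy and autophagy (0.10 to 0.27, with 3 above and 2 below), -0.17 for 11 HIF subunits and oxygen sensors (-0.24 to -0.04, with 1 above and 1 below) and -0.09 for 14 jumonji demethylases (-0.17 to 0.01, with 3 above and 1 below). For stress and synthesis genes it was 0.06 for 21 ER chaperones (0.00 to 0.16, with 4 above), -0.10 for 30 genes of sterol and fatty acid synthesis (-0.15 to -0.03, with 2 above and 4 below), -0.01 for 20 NRF2 targets (-0.07 to 0.12, with 2 above and 2 below), -0.03 for 26 interferon-stimulated genes (-0.11 to 0.07, with 3 above and 3 below) and 0.04 for 15 canonical histones (-0.08 to 0.15, with 1 above and 2 below). For cell cycle and cell type genes it was -0.13 for 40 S phase markers (-0.18 to -0.01, with 2 above and 1 below), -0.07 for 52 G2/M markers (-0.21 to 0.08, with 1 below), -0.10 for 10 LNCaP markers (-0.22 to -0.10, with 1 below), 0.19 for 4 markers of other cells (0.08 to 0.29, with 1 above), 0.12 for 9 liver and endoderm genes (0.08 to 0.24, with 2 above) and 0.34 for 7 neuroendocrine markers (0.12 to 0.71, with 1 below). Some of these counts moved when 1 library was left out. Of the collagen hydroxylases and lysyl oxidases 2 were above 0 at that P without N, EV replicate 2, N, OC2 replicate 1, H, EV replicate 2 or either H, OC2 replicate, and 3 without H, EV replicate 1. Of the respiratory chain subunits 11 were above 0 at that P without N, EV replicate 1. Of the G2/M markers 10 were below 0 at that P without N, EV replicate 1 and 6 above 0 without N, EV replicate 2. The neuroendocrine markers had their highest median, with 3 above 0 at that P, without N, EV replicate 1 and their lowest without N, EV replicate 2.

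The opposite experiment in PC3 cells, an androgen-insensitive prostate cancer line, gave an independent set of libraries. Its 8 libraries came from cells given a control siRNA (siCtrl) or an siRNA to ONECUT2 (siOC2, another one in each replicate), in normoxia or hypoxia, 2 in each group. The interaction was taken as siCtrl minus siOC2 in hypoxia, less the same in normoxia. Of 12195 genes tested with limma, 0 had an adjusted p under 0.05 and 125 (1.03%) an unadjusted P under 0.05, with a median of 0.17 over all genes and 68.4% of genes above 0. Of the 15 genes above 0 in LNCaP cells 9 were tested in PC3 cells, and 5 had the same sign. Of the 15 below 0, 14 were tested and 6 had the same sign. FBXO32 alone among these genes had an unadjusted P under 0.05 in PC3 cells (interaction 1.34, SE 0.53, unadjusted P = 0.0345 in limma). It stood at 29.0 and 31.0 RPKM in normoxic siCtrl, 36.99 and 19.1 in normoxic siOC2, 41.6 and 39.7 in hypoxic siCtrl, and 10.9 and 18.4 RPKM in hypoxic siOC2, so that the siCtrl and siOC2 libraries overlapped in normoxia and not in hypoxia. The difference between the cell lines was not tested.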

How the data were processed

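The authors trimmed reads of stranded polyA libraries, aligned them to hg19 with STAR 2.4.2a and computed RPKM with Cufflinks 2.1.1 and GENCODE annotation; the deposited RPKM were used as given, with no value for ONECUT2 in its overexpression libraries and 0 unused columns of sample values. RPKM gave depth only relative to the deepest library. Of 19662 genes, 7378 did not reach 1 RPKM in 2 libraries and 39 had a 0 beside a value over 10 RPKM. log2(RPKM + 0.1) was fitted in limma 3.58.1 (R 4.3.3) with 4 groups of 2, a mean-variance trend and no block, and p-values were adjusted by Benjamini-Hochberg over all 12244 genes. Fold changes of low genes are understated on this scale. Genes were named by rule: the 10 largest called interactions in each direction with 1 sign in both replicate numbers and a group mean of at least 5 RPKM, called list members (at most 4 a list), and a set of names whatever their values. Other called genes were added, and 29 of the 30 are shown; some named genes are not reported here. The genes, rule and 25 lists were chosen with earlier results of these data known; the pan-NET list is the study's, and counts of the lists are not independent evidence. Coordinates are GENCODE on GRCh37. Alternatives were another pseudocount, upper-quartile scaling, other limits on low values, no trend, a replicate block, other call limits and leaving out each library.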

Additional observations from a re-analysis of the deposited data

Results flagged for a closer look

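For 30 genes the change with ONECUT2 in hypoxia differed from that in normoxia by the interaction term itself (limma, adjusted p under 0.05), which is why they are listed here with the interaction on the log2 scale. In 15 genes the change was higher in hypoxia, among them TVP23C-CDRT4 (5.58), SMOC2 (4.25), CD6 (3.86), MBD3L2 (3.39), GSTA1 (2.66), FBXO32 (2.23), GSTA2 (2.21), KITLG (2.08), RIN2 (2.04), MT1G (1.90), IGF2 (1.69), MT2A (1.51), SOX4 (1.21) and UBR4 (1.02). In the other 15 it was lower in hypoxia, namely CCL26 (-4.36), HSPA6 (-3.58), TGFB1 (-3.47), DLX3 (-3.16), ARC (-2.61), S1PR3 (-2.34), BCAR3 (-1.60), IGF1R (-1.52), PRRT2 (-1.40), AL136376.1 (-1.39), SEC14L1 (-1.26), ID2 (-1.17), CNN2 (-1.08), HEXIM1 (-1.02) and TMBIM1 (-1.02). The values of TVP23C-CDRT4, AL136376.1, TMBIM1, TGFB1 and IGF2 come from gene models that overlap others, and those of GSTA1, GSTA2, MT1G, MT2A, MBD3L2 and HSPA6 from families with near-identical members. The part of shared reads in these values was not tested. No group had enough libraries to look for an outlying sample.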

How the results depend on the processing

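The 2 libraries a group and the unknown read totals limit the precision. Against 15 genes called above and 15 below 0, there were 44 and 37 with a pseudocount of 1, 39 and 26 without the mean-variance trend, and 1 and 1, none of them among the 30, with no limit on low values. The looser limits gave 292 and 164, and an unadjusted P under 0.05 of any size, added after seeing the data, gave 1283 and 812. Leaving out each library gave 0 to 163 above and 0 to 62 below 0. The lone library of a group was then assumed to vary like the other groups. With upper-quartile scaling there were 10 and 13 and with a limit of 5 RPKM 12 and 19. Same-numbered libraries did not deviate together (correlations of -0.144 to 0.199 over the 6 pairs of groups), so the numbers were not taken as pairs. A replicate block gave 6 and 3 calls. All 30 called genes kept their sign under all 15 alternatives in which they were tested, where 8 were not tested at the limit of 5 RPKM. The alternatives use the libraries on which the genes were chosen, so the kept sign is no independent support. Of the 30 called genes 28 were still called with a pseudocount of 1, 25 without the mean-variance trend and 23 with upper-quartile scaling. With a replicate block 9 were, with no limit on low values none, and at the limit of 5 RPKM 19 of the 22 tested. Over the alternatives the interaction ran from 2.15 to 6.09 for TVP23C-CDRT4, 2.27 to 4.66 for SMOC2, 1.20 to 2.27 for KITLG and 0.90 to 1.84 for IGF2. It ran from -3.66 to -1.63 for DLX3 and from -4.18 to -2.22 for HSPA6. Over the alternatives the median changed sign for HIF targets (-0.02 to 0.22), TGF-beta genes (-0.20 to 0.15), G2/M markers (-0.21 to 0.08), collagen hydroxylases (-0.03 to 0.36), neuroendocrine markers, interferon-stimulated genes, cytokines, NRF2 targets, histones, jumonji demethylases and markers of other cells (-0.29 over 9 genes with no limit on low values), as did the values of ENO2 (-0.48 to 0.71), HIF1A (-0.25 to 0.04) and SYP (-0.12 to 0.81), genes that were not called. In PC3 cells the looser limits gave 85 and 29 genes against 0 and 0. The cause of these shifts was not tested.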

Other observations

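A further gene of the looser limits was picked after its values were seen, and it was not called. CYP11A1, which starts steroid hormone synthesis from cholesterol, had 0.783 and 0.783 RPKM in N, EV, 0.616 and 0.824 in N, OC2, 40.4 and 45.9 in H, EV, and 4.18 and 15.7 RPKM in H, OC2 (interaction -2.27, SE 0.67, limma adjusted p = 0.156). Its hypoxic level was lower with ONECUT2 without overlap, and the 2 H, OC2 libraries lay far apart. CYP11A1 passed the filter only through hypoxic libraries, so its low normoxic values come with its selection.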
